A study of Mus musculus with 6 samples.

Results

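Myeloid C-type lectin receptors are membrane proteins of macrophages, microglia and dendritic cells that bind microbial sugars, glycolipids and products of damaged cells. The genes described are 10 of the 54532 in the deposited table, taken by gene name: Clec4e, Clec4d, Clec4n, Clec5a, Clec7a, Clec12a, Clec4a1, Clec4a2, Clec4a3 and Clec2d. They were counted in N9 microglia, an immortalized mouse cell line derived from brain, in 3 libraries of cells stimulated with lipopolysaccharide (LPS) at 1 µg/ml for 6 h and 3 libraries of untreated control cells, both grown in RPMI medium with fetal bovine serum, penicillin and streptomycin. N9 is a single line, and the labels do not say whether the replicates were separate cultures, so p-values measure the spread between these libraries, which may be technical.

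The receptors differ in how they signal. Mincle (Clec4e), MCL (Clec4d) and Dectin-2 (Clec4n) pair with the ITAM adaptor FcRγ, and MDL-1 (Clec5a) pairs with DAP12. Dectin-1 (Clec7a) carries an activating tyrosine motif of its own. From all of these, Syk kinase signals through CARD9, BCL10 and MALT1 to NF-κB. DCIR (Clec4a2) and MICL (Clec12a) instead carry an inhibitory motif that recruits phosphatases.

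The 6 libraries held between 16363767 and 17956772 counts, and 3 counts corresponded to between 0.161 and 0.19 CPM, the unit of counts scaled to the TMM-normalized library size. Markers of the label were partly present. Of 12 microglia and macrophage markers, 8 passed the filter on low counts, among them Cd68, Csf1r, Trem2 and Tmem119, and their summed level ran from 1529 to 1625 CPM in control cells and from 1632 to 1688 CPM with LPS. P2ry12 had at most 6 counts in a library, Sall1 at most 1 and Siglech 0. Of 12 hepatocyte markers none passed, and their summed level was 0.233, 15.5 and 25.3 CPM in control replicates 1, 2 and 3 and between 0.305 and 0.669 CPM with LPS. All 8 lymphocyte markers were at 3 counts or fewer in every library. Of 6 dendritic cell markers, 3 passed, Clec9a was at 0, and the summed level ran from 7.31 to 9.68 CPM in control cells and from 18.05 to 20.1 CPM with LPS. Of these 3, Xcr1 alone rose, from 2.42 to 14.4 CPM (edgeR adjusted p = 2.4e-08), while Itgae and Zbtb46 did not pass the test, at log2 fold changes of -0.70 and -0.15. Of 7 neutrophil markers, 1 (S100a8) passed, Ly6g was at 0, and the summed level ran from 3.79 to 4.59 CPM in control cells and from 10.3 to 11.6 CPM with LPS. The part of these cell types in the results was not tested. In bulk RNA, fewer cells of a type and less RNA per cell cannot be told apart.

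With LPS, 4 of the 10 receptor genes rose, 2 fell and 4 did not pass the test. Clec4e rose 2.39-fold from an already high level and Clec4d rose 1.37-fold, while Clec2d and Clec4a1 rose from near the limit of detection. Clec4a3 and Clec4n fell by less than a factor of 1.5, and Clec5a, Clec7a, Clec12a and Clec4a2 had adjusted p-values over 0.05. The test was edgeR's quasi-likelihood test over all 12296 genes that passed the filter on low counts, and a gene is called changed at a Benjamini-Hochberg adjusted p under 0.05. By that rule 34.3% of all tested genes were changed, 18.7% higher and 15.7% lower with LPS. All 10 receptor genes passed the filter, but Clec2d and Clec4a1 passed through their LPS libraries alone and therefore had to differ between groups. The 10 genes had a median log2 fold change of -0.10, beside 0.0036 for all tested genes. Control replicates 2 and 3, which held hepatocyte transcripts, were left out 1 at a time, so each fit kept the other. The log2 fold change of Clec4e was 1.25 in either fit and that of Clec4d 0.44. Clec4a3 lost its call in both (edgeR adjusted p = 0.137 and 0.0698), as it did with any other library left out, at log2 fold changes of -0.52 and -0.65. Clec4n lost it without control replicate 2 (edgeR adjusted p = 0.0723), at -0.26, and Clec4a1 moved to 3.10 and 1.91 on the log2 scale. The 3.10 rests on control libraries of 2 and 1 counts.

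**Figure D1:**
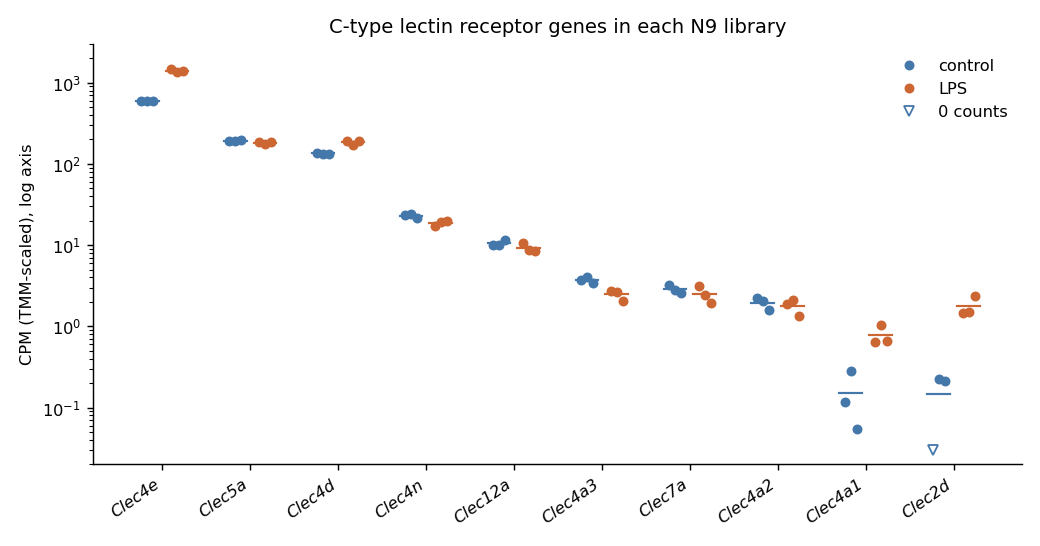
CPM of each receptor gene (log axis) in the 3 control and 3 LPS libraries, with a short line at each group mean and an open triangle for a library with 0 counts. Clec4e stands at 590 CPM in control and 1412 CPM in LPS cells. Clec4a1 and Clec2d, at the low end, passed the filter on low counts through their LPS libraries alone and so had to differ.

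Clec4e (ENSMUSG00000030142) encodes Mincle, a receptor for mycobacterial glycolipids and for a protein released by dying cells. It lies on chromosome 6 of mm10 from 123281789 to 123289870, on the minus strand. Untreated cells gave 10144, 10389 and 10989 counts and stimulated cells 23160, 22348 and 23127. The groups did not overlap, LPS being higher, as for 23.7% of all tested genes. After scaling, the control libraries stood close together at 592, 588 and 591 CPM. The level rose from 590 ± 1.65 to 1412 ± 52.6 CPM (SD, n = 3), or 1.26 ± 0.03 (SE) as a log2 fold change, at an edgeR adjusted p of 5.3e-13. By mean CPM per kb of gene length, Clec4e ranked 401st of the 12296 tested genes in control cells and 173rd with LPS. The increase was below the log2 fold change of 1.5 that the study set for a differentially expressed gene (DEG).

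Clec4d (ENSMUSG00000030144) encodes MCL, which associates with Mincle and supports its presence at the cell surface. It lies from 123262111 to 123275265 on the plus strand, and 6523 bases separate it from Clec4e, so that the pair point at each other. Untreated cells gave 2371, 2369 and 2496 counts and stimulated cells 3056, 2846 and 3115, again without overlap. It rose from 136 ± 2.38 to 185 ± 10.6 CPM (SD, n = 3), by a log2 fold change of 0.45 ± 0.05 (SE), at an edgeR adjusted p of 4.2e-06. The 95% interval of the log2 fold change, 0.35 to 0.56 for Clec4d, lay wholly below that of Clec4e, 1.18 to 1.33. Libraries without overlap, in either direction, were found for 45.3% of all tested genes.

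The windows around the start sites of this pair are printed because both genes are abundant and both rose. They come from RefSeq on GRCm38.p6, read 5′ to 3′ on the strand of the gene, and run from chr6:123289822-123290121 for Clec4e (minus strand) and chr6:123261857-123262156 for Clec4d (plus strand). Capitals mark matches on either strand to GAGGAA, the core of the site of the myeloid factor PU.1, and to 2 GAAA units with any 2 bases between them, a pattern of interferon response elements.
Clec4e: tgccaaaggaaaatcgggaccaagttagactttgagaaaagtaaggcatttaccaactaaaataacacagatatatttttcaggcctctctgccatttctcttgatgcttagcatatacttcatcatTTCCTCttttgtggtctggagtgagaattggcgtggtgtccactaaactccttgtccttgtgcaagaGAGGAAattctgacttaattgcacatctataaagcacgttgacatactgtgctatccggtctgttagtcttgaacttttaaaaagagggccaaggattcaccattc
Clec4d: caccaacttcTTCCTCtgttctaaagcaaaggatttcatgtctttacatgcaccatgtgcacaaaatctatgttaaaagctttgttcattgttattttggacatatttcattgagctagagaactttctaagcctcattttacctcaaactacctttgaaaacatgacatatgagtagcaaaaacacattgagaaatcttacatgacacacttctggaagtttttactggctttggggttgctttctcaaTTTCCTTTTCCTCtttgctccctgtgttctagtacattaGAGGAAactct
In the Clec4e window, GAGGAA matched at bases -123 to -118 and -56 to -51 from the start site, where the start site is base 1. In the Clec4d window it matched at bases -240 to -235, 8 to 13 and 40 to 45. The interferon pattern matched at bases 1 to 10 of Clec4d, where it overlaps a GAGGAA match, and had no match in the Clec4e window.

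Because levels of different genes can be compared only per length, CPM was divided by the gene length in kb that the table gives. On this scale the order was Clec4e, Clec4d, Clec5a and Clec4n in both groups, with no overlap between libraries of neighbours in that order. In control cells Clec4e stood at 119 ± 0.333, Clec4d at 84.8 ± 1.49, Clec5a at 50.4 ± 0.426 and Clec4n at 16.2 ± 0.865 CPM per kb (SD, n = 3). The other 6 genes were at most 3.03 CPM per kb in any control library, from Clec4a3 at 2.78 down to Clec2d at 0.121 and Clec4a1 at 0.097, and only the last pair overlapped. With LPS, Clec4a3, Clec12a and Clec2d had libraries that overlapped with their neighbours in the order, at means of 1.86, 1.67 and 1.47 CPM per kb, as did Clec4a2 and Clec4a1 at 0.612 and 0.5.

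Clec4e made up 42.9% ± 0.264 of the summed level per kb of the 10 genes in control cells and 60.7% ± 0.535 with LPS (SD, n = 3). The share of Clec4d went from 30.6% ± 0.327 to 24.8% ± 0.531, and that of Clec5a from 18.2% ± 0.211 to 10.2% ± 0.212. The ratio of Clec4e to Clec4d, per kb, was 1.38, 1.41 and 1.42 in untreated and 2.44, 2.53 and 2.39 in stimulated cells. The groups did not overlap in this ratio, for which an exact two-sided permutation test of 3 against 3 libraries gives its smallest possible p, 0.1. The summed level of the 10 genes went from 277 ± 2 to 468 ± 17.9 CPM per kb, and without Clec4e from 158 ± 1.84 to 184 ± 7.97.

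**Figure D2:**
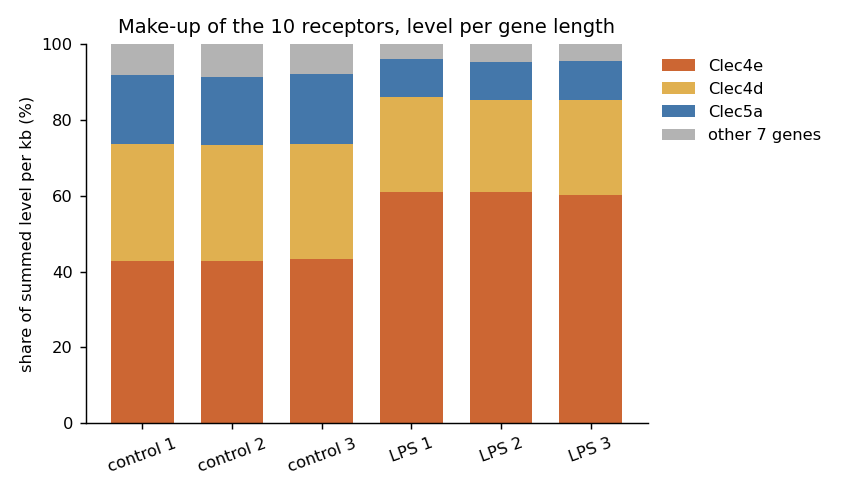
Share (%) of each gene in the summed level per kb of the 10 receptor genes, as stacked bars for each of the 6 libraries. Clec4e takes about the same share in the 3 libraries of a group, 42.9% on average in control and 60.7% in LPS cells.

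Clec2d (ENSMUSG00000030157) showed the largest log2 fold change of the 10. It encodes Clr-b, a surface ligand that inhibits natural killer cells through receptors of the Klrb1 family. It lies on chromosome 6 from 129180615 to 129186534, on the plus strand. Untreated cells gave 0, 4 and 4 counts and stimulated cells 23, 25 and 39. It rose from 0.147 ± 0.128 to 1.78 ± 0.511 CPM (SD, n = 3), or 3.51 ± 0.55 (SE) as a log2 fold change. That log2 fold change was 2.83 with a prior count of 2 and ran from 2.96 to 3.91 with each library left out. Because the filter kept Clec2d for its LPS libraries alone, the p of the main fit is not given as support. Without the filter the edgeR adjusted p was 9.4e-10, in a fit with infinite prior degrees of freedom. The DESeq2 adjusted p was 8.3e-06. The ratio of the scaled group counts was 11.9, with an exact 95% interval of 5.8 to 28.5 that covers counting error only. Of the distinct runs of 50 bases in its GENCODE M21 transcript, 1.98% also occur in Clec2g or Clec2i, which had 0 counts in every library.

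Clec4a1 (ENSMUSG00000049037) encodes DCIR4, a relative of the inhibitory receptor DCIR. It lies from 122921848 to 122934619 on the plus strand. Untreated cells gave 2, 5 and 1 counts and stimulated cells 10, 17 and 11. It rose from 0.151 ± 0.119 to 0.779 ± 0.223 CPM (SD, n = 3), or 2.32 ± 0.59 (SE) as a log2 fold change. The same limit of the filter holds for it. Without the filter its edgeR adjusted p was 0.00714, and the DESeq2 adjusted p was 0.0299. The ratio of the scaled group counts was 5.22 (exact 95% interval 2.4 to 12.9, counting error only). With each library left out, its log2 fold change ran from 1.91 without control replicate 3 to 3.10 without control replicate 2, whose 5 counts were the most among the control libraries. The 3.10 rests on control libraries of 2 and 1 counts. With those set at 3 counts each, the LPS mean was at least 4.64-fold higher. Clec2d and Clec4a1 were the DEG among the 10 genes, beside 2.65% of all tested genes, but since the filter kept both for their LPS libraries nothing is read from that count.

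The windows around the start sites of these DEG are shown for comparison with the pair above, from RefSeq on GRCm38.p6, both on the plus strand, at chr6:129180365-129180664 for Clec2d and chr6:122921598-122921897 for Clec4a1. Capitals mark the same patterns and GGG and CC with any 5 bases between them, a loose pattern of NF-κB sites.
Clec2d: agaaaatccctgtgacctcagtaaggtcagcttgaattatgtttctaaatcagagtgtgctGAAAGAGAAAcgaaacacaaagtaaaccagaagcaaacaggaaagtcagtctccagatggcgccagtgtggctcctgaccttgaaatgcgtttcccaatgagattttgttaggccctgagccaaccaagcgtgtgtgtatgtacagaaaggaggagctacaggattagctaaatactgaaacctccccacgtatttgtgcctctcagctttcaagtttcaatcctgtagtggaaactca
Clec4a1: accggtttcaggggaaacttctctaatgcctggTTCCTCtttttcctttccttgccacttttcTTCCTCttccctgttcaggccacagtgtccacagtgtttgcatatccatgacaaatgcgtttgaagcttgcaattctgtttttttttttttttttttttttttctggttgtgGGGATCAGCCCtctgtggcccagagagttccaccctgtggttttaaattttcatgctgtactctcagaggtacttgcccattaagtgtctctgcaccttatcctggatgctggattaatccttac
The interferon pattern matched once in the Clec2d window, at bases -189 to -180, and the window held no GAGGAA. The Clec4a1 window held GAGGAA at bases -217 to -212 and -187 to -182, and the NF-κB pattern on both strands in overlapping matches from base -75 to -65.

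Windows from RefSeq were used for 9 of the 10 receptor genes, 11 windows in all. The start-site window of Clec4n was not analysed here. Of the 9 genes, 7 held GAGGAA (Clec4a1, Clec4a3, Clec4d, Clec4e, Clec5a, Clec7a and Clec12a). By window, it was in 8 of the 11, against 28.3% of all 32851 windows of this length. For each pattern below, as many of the 11 windows as genes held a match. The interferon pattern was in Clec4d and Clec2d, against 3.44% of all windows. The loose NF-κB pattern was in Clec4a1 alone, against 50.8% of all windows, and the AP-1 pattern TGANTCA was in Clec4a2 and Clec12a, against 7.81%. The windows of Clec4a2 and Clec12a begin at 123122440 and 129349994, inside the genes and downstream of their listed starts at 123106428 and 129342691. TTNNGNAA, a loose pattern of C/EBP sites, was in 6 of the 9 genes, against 40.7% of all windows. These are letter matches and were not tested against binding.

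Clec4n (ENSMUSG00000023349) encodes Dectin-2, a receptor for fungal mannans, and lies from 123229843 to 123247021 on the plus strand, 15089 bases from Clec4d. Untreated cells gave 399, 425 and 403 counts and stimulated cells 275, 320 and 324. It fell 1.22-fold, from 23.0 ± 1.23 to 18.9 ± 1.27 CPM (SD, n = 3), or -0.28 ± 0.09 (SE) as a log2 fold change, at an edgeR adjusted p of 0.0224. All LPS libraries lay below all control libraries, as they did for 21.5% of all tested genes. The call was lost with DESeq2 (adjusted p = 0.057), without control replicate 2 (edgeR adjusted p = 0.0723) and without LPS replicate 1 (0.0886).

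Clec4a3 (ENSMUSG00000043832), which encodes DCIR3, another relative of DCIR, lies from 122952515 to 122969875 on the plus strand. Untreated cells gave 63, 71 and 63 counts and stimulated cells 43, 43 and 34. It fell 1.49-fold, from 3.69 ± 0.318 to 2.47 ± 0.352 CPM (SD, n = 3), or -0.58 ± 0.21 (SE) as a log2 fold change, at an edgeR adjusted p of 0.0484. Its libraries did not overlap either, LPS being lower, as for 21.5% of all tested genes. The adjusted p was close to the threshold and passed it in 3 of 14 alternative fits, in which it ran from 0.0461 to 0.154.

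Clec5a (ENSMUSG00000029915), at 40574894 to 40585821 on the minus strand of the same chromosome, encodes MDL-1, an activating receptor of myeloid cells that also recognises dengue virus. Untreated cells gave 3323, 3385 and 3627 counts and stimulated cells 2928, 2864 and 3091, or 193 ± 1.63 and 183 ± 7.18 CPM (SD, n = 3). Scaled, all LPS libraries lay below all control libraries, as they did for 21.5% of all tested genes. The log2 fold change was -0.08, with a 95% interval from -0.18 to 0.01 and an edgeR adjusted p of 0.173.

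Clec7a (ENSMUSG00000079293), at 129461591 to 129472779 on the minus strand, encodes Dectin-1, the receptor for fungal β-glucans. The deposited table lists it as a polymorphic pseudogene, and untreated cells gave 56, 50 and 48 counts and stimulated cells 50, 40 and 32. Its log2 fold change was -0.20, with a 95% interval from -0.72 to 0.32 (edgeR adjusted p = 0.574). At 2.89 ± 0.347 and 2.52 ± 0.614 CPM (SD, n = 3) the groups overlapped.

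Clec12a (ENSMUSG00000053063), at 129342691 to 129365303 on the plus strand, encodes the inhibitory receptor MICL, which binds uric acid crystals. Untreated cells gave 170, 177 and 218 counts and stimulated cells 166, 142 and 140. Its log2 fold change was -0.20 (95% interval -0.47 to 0.08, edgeR adjusted p = 0.272), and the groups overlapped. Clec4a2 (ENSMUSG00000030148), at 123106428 to 123143999 on the plus strand, encodes DCIR itself. Untreated cells gave 38, 36 and 30 counts and stimulated cells 30, 35 and 22, with a log2 fold change of -0.12 (95% interval -0.72 to 0.47, edgeR adjusted p = 0.772). Of the 50-base runs in the Clec4a2 transcripts, 6.83% (202 runs) also occur in transcripts of 447 other genes, of which Clec4a4, with at most 1 count in a library, shares the most (114 runs). For Clec4e, Clec4d, Clec5a, Clec7a, Clec4a1 and Clec4a3 no such run was shared with another gene.

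**Figure D3:**
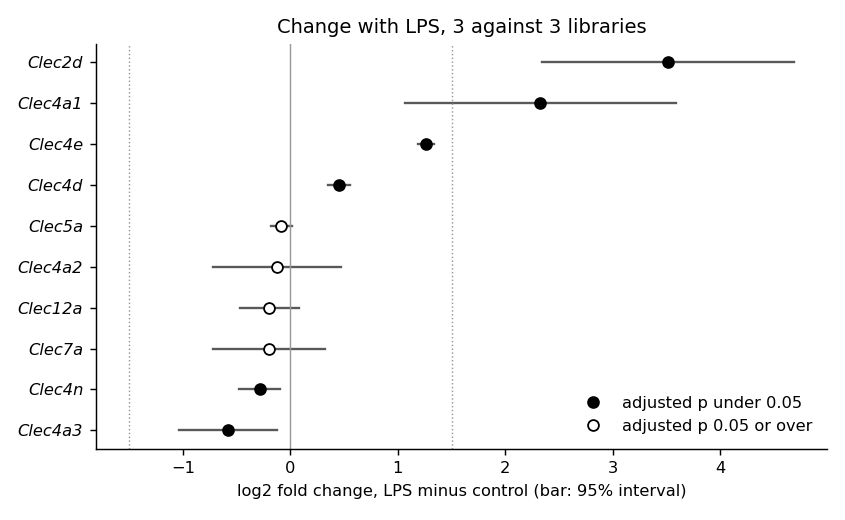
Log2 fold change of each receptor gene, LPS minus control, with its 95% interval from edgeR. Filled points have an adjusted p under 0.05, open points do not, and dotted lines stand at 1.5 on either side of 0. Clec4e and Clec4d have narrow intervals at 1.26 and 0.45, whereas Clec2d and Clec4a1 have wide ones at 3.51 and 2.32.

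All 10 genes lie on chromosome 6. Clec4a1, Clec4a3, Clec4a2, Clec4n, Clec4d and Clec4e lie within 368023 bases of each other, and Clec2d, Clec12a and Clec7a within 292165. Within the first stretch, genes that rose, fell or did not pass the test stood side by side. Clec4d and Clec4e, which rose, were the last of its members by position. Clec4a1, the first of them, passed the filter on low counts through its LPS libraries alone, so nothing is read from its place. The 7 other genes there had at most 1 count in any library, and 5 of them had 0 in all. Among the 10 other genes of the second stretch, 1 was tested. This was Cd69, an early activation antigen of leukocytes, with 1, 5 and 4 counts in untreated and 11, 13 and 23 in stimulated cells. It was a DEG, at 2.32 ± 0.55 (SE) as a log2 fold change and an edgeR adjusted p of 0.00441, but like Clec2d it passed the filter on low counts through its LPS libraries alone and so had to differ. The others in that stretch, Clec1a, Clec1b, Clec9a and Clec12b among them, had at most 7 counts. By their listed positions, 9 of the 10 receptor genes overlap no other gene, and the pseudogene inside Clec4a2 had 0 counts.

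**Figure D4:**
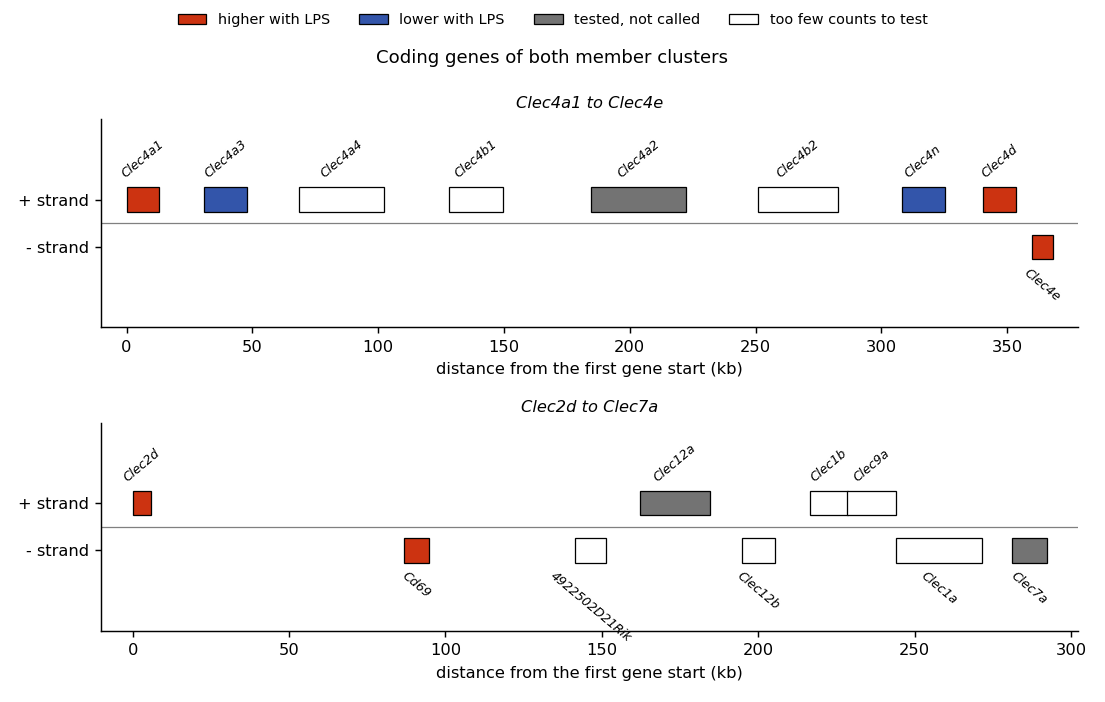
Coding genes (with Clec7a, listed as a polymorphic pseudogene) of both stretches of chromosome 6, by strand and distance in kb from the first gene start. Red genes rose with LPS, blue genes fell, grey genes did not pass the test and white genes had too few counts to test. Clec4d and Clec4e stand next to each other at the right end of the upper map.

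The machinery below the receptors was taken from 4 lists: adaptors, kinases with nearby enzymes, the CARD9 complex and inhibitors. Of the 19 tested genes of 20 listed, 6 rose, 5 fell and 8 did not pass the test, with a median log2 fold change of -0.0041, beside 0.0036 for all tested genes. Over all tested genes, 18.7% were higher and 15.7% lower. None of the adaptors passed it. Fcer1g (FcRγ) stood at 131 CPM per kb in both groups, with a log2 fold change of -0.0041 (95% interval -0.10 to 0.09, edgeR adjusted p = 0.953). Tyrobp (DAP12), at 320 and 297 CPM per kb in control and LPS cells, had a log2 fold change of -0.11 (edgeR adjusted p = 0.103), and Hcst (DAP10), at 3.03 and 2.96, one of -0.03 (0.951). Per kb, Clec4e thus stood at 119 beside 131 for Fcer1g in control cells and at 284 beside 131 with LPS.

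Of the kinases and enzymes, 3 of 8 tested genes rose and 2 fell, beside 18.7% and 15.7% of all tested genes. Src, a kinase of the family that phosphorylates ITAMs, was a DEG. It went from 325, 346 and 358 to 863, 960 and 946 counts, by a log2 fold change of 1.56 ± 0.07 (SE), at an edgeR adjusted p of 9.1e-11. Syk, singled out after its values were seen, went from 2609, 2795 and 2978 to 5166, 5636 and 5540 counts, 2.14-fold higher (edgeR adjusted p = 3.7e-11). Plcg2, a phospholipase, fell by 0.31 on the log2 scale (edgeR adjusted p = 1.1e-04), and Vav1, a guanine nucleotide exchange factor, did not pass the test, at 0.01 on that scale (0.885).

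In the CARD9 complex, 1 gene fell and 2 rose, beside 15.7% lower and 18.7% higher over all tested genes. Card9 fell from 836, 819 and 867 to 519, 664 and 662 counts, or -0.32 ± 0.08 (SE) as a log2 fold change, at an edgeR adjusted p of 0.00517. Malt1 rose by 0.28 ± 0.06 (SE) at an edgeR adjusted p of 0.00158 and Bcl10 by 0.25 ± 0.08 (SE) at an edgeR adjusted p of 0.0219. Of the 5 inhibitors, 1 rose and 2 fell, beside the same 18.7% and 15.7%. Ptpn6, the phosphatase SHP-1, fell from 6864, 7122 and 7683 to 4469, 4402 and 4611 counts, or -0.55 ± 0.04 (SE) as a log2 fold change, at an edgeR adjusted p of 5.2e-08, and Ptpn11 (SHP-2) had a log2 fold change of 0.0040 (0.953).

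**Figure D5:**
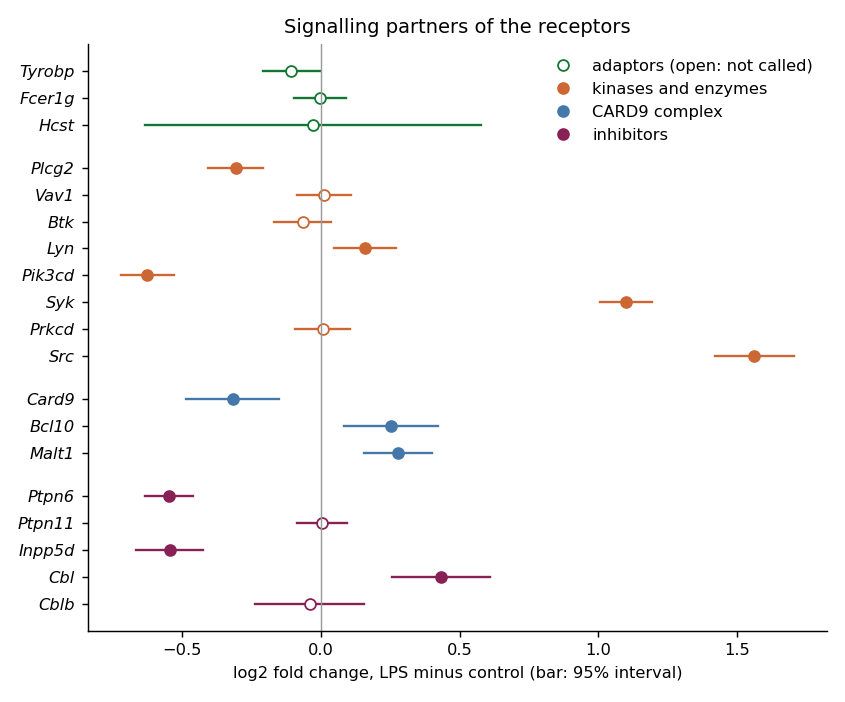
Log2 fold change, LPS minus control, of the tested signalling partners with 95% intervals, coloured by list. Filled points have an edgeR adjusted p under 0.05. Src is highest at 1.56, followed by Syk, and the adaptors lie around 0.

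Most other C-type lectin-like receptors had few or no counts in these cells. Of 44 such genes outside the 10, 6 passed the filter, 23 had 0 counts in every library, and the rest had at most 19 counts in a library. Among the 6 tested, 3 rose (Olr1, Cd302 and Cd69, the last tested only because of its LPS libraries), 2 fell and 1 did not pass the test, beside 18.7% higher and 15.7% lower over all tested genes. Olr1, a receptor for oxidized lipoprotein, was a DEG: 21, 21 and 15 counts in untreated and 58, 59 and 59 in stimulated cells, 3.37-fold higher (edgeR adjusted p = 7.5e-05). The most abundant per kb, the scavenger receptor Colec12, fell from 103 to 82.4 CPM per kb, a log2 fold change of -0.33 (edgeR adjusted p = 3.7e-05). Cd302 rose from 14.0 to 22.1 CPM per kb, by 0.66 (edgeR adjusted p = 1.8e-05). Klrb1a, Klrb1b, Klrb1c and Klrb1f, the receptor family for which Clec2d encodes a ligand, had 0 counts in all 6 libraries, which allows up to 0.19 CPM in a library by counting error alone.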

How the data were processed

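RNA-seq of 6 N9 libraries was analysed from the deposited table of read counts per gene, whole numbers that the authors left unnormalized. The submitters' processing notes name featureCounts version 1.5.0-p3 and mm10. The aligner, strand setting and annotation are not given in the sources used here. Positions of all 10 genes equalled those in GENCODE M21 (GRCm38). A table of the authors' own DESeq2 comparison, with fold changes, p-values and 18 columns of values per sample, was not used.

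Samples were grouped by their titles. LPS and control libraries were compared over all genes by the quasi-likelihood test of edgeR 4.0.16 in R 4.3.3, with TMM factors, filterByExpr (minimum count 10), a prior count of 0.125 and Benjamini-Hochberg adjustment over 12296 genes. The script was tested on simulated data. Standard errors are the log2 fold change divided by the square root of F, and intervals are 95%. A DEG also has an absolute log2 fold change over 1.5. Levels per kb use the gene length of the deposited table, listed there with no stated definition. Within each group, pairs of libraries differed by more than sampling noise (chi-square per gene 3.61 to 7.82).

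The genes and lists were chosen with earlier results of these data known. The text names all 10 receptor genes, all adaptors and CARD9 genes, and, of the kinase, inhibitor and related receptor lists, DEG and the 2 genes highest per kb. Named in addition are Syk, the Klrb1 genes and some related receptors with few or no counts. Markers of cell types were named as examples, after their values were seen. 1 gene of the kinase list is not reported here, and the counts leave it out. Among neighbours on the chromosome the text names DEG and examples of genes with few or no counts. Motif letters were searched on both strands of RefSeq start-site windows. Alternatives were DESeq2 1.42.0, RLE factors, no filter, a filter at a mean of 10 counts, robust dispersion, a replicate block, a prior count of 2 and each library left out.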

Additional observations from a re-analysis of the deposited data

How the results depend on the processing

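The number of changed receptor genes was 6 and ran from 4 to 6 over 14 alternatives, and no called direction reversed. Clec2d and Clec4a1 were called wherever tested. Nothing is read from that in fits with the filter, which kept them for their LPS libraries alone. Clec4e and Clec4d stayed called in every alternative. The 2 that fell did not: the number lower with LPS was 0 with DESeq2, 1 without the filter, 1 with robust dispersion, 1 without the filter and with robust dispersion (added after seeing the data, because the fit without the filter had infinite prior degrees of freedom) and 0 to 1 with each library left out. The number of DEG among the receptor genes was 1 with a filter at a mean of 10 counts, since Clec4a1 was then not tested, and 2 in the other alternatives. Log2 fold changes with each library left out ran from 1.23 to 1.28 for Clec4e, 0.42 to 0.50 for Clec4d, 2.96 to 3.91 for Clec2d, 1.91 to 3.10 for Clec4a1, and -0.27 to 0.05 for Clec4a2, which was called in no fit. The 3.10 of Clec4a1 rests on control libraries of 2 and 1 counts. With a prior count of 2, Clec2d was 2.83 and Clec4a1 1.75. The cause was not tested where no cause is given.

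Whether replicate numbers pair the libraries was not settled, and the main fit used no pairing. Deviations of same-numbered libraries correlated at 0.131, 0.0484 and 0.0049, and those of the other control and LPS pairs at -0.121 to 0.0772. Not every library correlated best with its own number. With the replicate block, the number lower with LPS was 1, and changed genes overall went from 4221 to 4474. The 5 receptor genes with the fewest counts (Clec7a, Clec4a3, Clec4a2, Clec2d and Clec4a1) had standard errors of 0.21 to 0.59 on the log2 scale, so a change as small as the 0.45 of Clec4d was hardly detectable for them at this depth.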
